A study of Mus musculus with 8 samples.

Results

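The proteasome subunit genes were followed in mouse hippocampus after status epilepticus (SE), a seizure that does not stop by itself. The genes were chosen by symbol alone, as every symbol that begins with Psma, Psmb, Psmc or Psmd without the immunoproteasome genes Psmb8, Psmb9 and Psmb10. The choice gave 37 of 20258 gene symbols. By prefix, 16 (Psma and Psmb) were grouped as 20S core and 21 (Psmc and Psmd) as 19S cap. The cap group includes 3 genes for assembly chaperones (Psmd5, Psmd9 and Psmd10) and Psmc3ip, which codes for no subunit. Hippocampal RNA of C57BL/6 mice was sampled 12 h, 10 d and 6 wk after status epilepticus and in control animals, labelled as time zero. Each of these 4 groups had 2 libraries of polyadenylated RNA, and each library pooled cDNA of 2 animals. The sources used here do not give how the seizures were induced, what control animals received, or age and sex.

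The proteasome is the protease that degrades proteins marked with ubiquitin in the cytosol and nucleus. Its barrel, the 20S core, is built of outer rings of alpha subunits, which gate the entrance, and inner rings of beta subunits, of which Psmb5, Psmb6 and Psmb7 carry the active sites. The 19S cap sits on the barrel and consists of a base, whose ATPases unfold substrates and thread them into the core, and a lid, which removes the ubiquitin chain. In neurons the proteasome also acts at synapses, where the turnover of synaptic proteins depends on activity. When proteasome activity is short, the transcription factor Nfe2l1 is known to raise the transcription of proteasome subunit genes together.

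Each gene had 2 values at each time in the table that the authors deposited, a mean signed fold of status epilepticus over control, negative where the gene was lower after seizures, and a mean q-value, given below as q. A gene is called higher or lower here where the mean q was under 0.05 and the mean fold was 1 or more in size, and mixed where the mean q was under 0.05 but the mean fold was smaller than 1. A mean of folds can fall below 1 in size only if single folds went opposite ways, were missing or were themselves under 1. These values stand for no single library, so no level per sample, error or depth can be given for a gene, and folds of 20 or more in size are printed as deposited. The labels name only time zero as control, so the 3 times probably share control libraries and are not taken as independent of each other. All 37 members had a fold at every time. Identical folds in many genes marked out a few members: Psma8 shared its exact fold with 38 other genes at 12 h, 44 at 10 d and 332 at 6 wk, Psma3 with 76 at 12 h, Psmb11 with 33 at 12 h and Psmc3ip with 15 at 12 h. None of these values was called, and the folds of the called members were shared with no other gene. Of all genes, 20.9%, 22.6% and 18.9% at 12 h, 10 d and 6 wk had a fold that 10 or more other genes also had. By RefSeq's names, Psma5 and Psmb5 have 1 pseudogene each and Psmb6 and Psmb7 have 2 each, and reads shared with a pseudogene may be missing from or misplaced in their values. Psma4, Psmd1 and Psmc3ip overlap a gene on the opposite strand, and the sources used here do not say whether counting used strand.

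Of the 37 members, 20 were called higher or lower at 1 or more times and 17 at none. At 12 h, 4 members were higher, 3 lower and 5 mixed, beside 10.2% higher, 7.48% lower and 4.28% mixed among all 16783 genes with a fold. At 10 d, 3 were higher, 10 lower and 4 mixed, beside 7.85%, 11.3% and 3.59% of 17227 genes. At 6 wk, 1 was higher, 9 were lower and 4 mixed, beside 9.63%, 12% and 3.73% of 15798 genes. The share of members called lower was thus 8.11% at 12 h, near that of all genes, and 27.0% at 10 d and 24.3% at 6 wk, above that of all genes. A larger share of members than of all genes passed the mean q in any class, 32.4%, 45.9% and 37.8% at 12 h, 10 d and 6 wk, against 21.9%, 22.7% and 25.3% of all genes. Among those passing, 25% of 12 members were lower at 12 h, 58.8% of 17 at 10 d and 64.3% of 14 at 6 wk. Of all passing genes, 34.1% of 3678, 49.6% of 3912 and 47.3% of 4003 were lower. At 12 h the members' share was thus the smaller. The member shares rest on few genes. The median mean fold over the 37 members was 0.557 at 12 h, -0.164 at 10 d and -1.08 at 6 wk. Over all genes with a fold it was 0.557, 0.689 and -0.737. The member medians at 12 h and 6 wk were the uncalled folds of Psmc3ip and Psma8, which 15 and 332 other genes shared. The median of all genes at 12 h was that same repeated fold of Psmc3ip.

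The lower calls at 10 d lay mostly in the cap. Of 21 cap genes, 9 were lower (42.9%), 2 higher and 3 mixed at 10 d. Of 16 core genes, 1 was lower (6.25%), 1 higher and 1 mixed. The cap counts include the chaperone genes Psmd5, which was lower, and Psmd9, which was higher. Among the cap's subunit genes, 6 of 9 in the base and 2 of 8 in the lid were lower, and 1 lid gene was higher. In any class, 66.7% of cap genes but 18.8% of core genes passed the mean q at 10 d. Passing or not, the mean fold at 10 d was negative in 66.7% of cap genes and 43.8% of core genes, against 43.1% of all genes. With a minimum fold of 2 in place of 1, 4 of 21 cap genes (19.0%) and 9.63% of all genes were lower at 10 d, so that 5 of the 9 cap calls had mean folds between 1 and 2 in size. At 12 h the cap had 3 higher genes, Psmd5 among them, and 3 lower, and the core 1 higher and none lower. At 6 wk the cap had 5 lower and none higher, and the core 4 lower and 1 higher. A difference between cap and core was not tested, since the genes are not replicates of a condition and no value per library was used. In bulk tissue, fewer cells of a kind and less RNA per cell cannot be told apart.

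**Figure D1:**
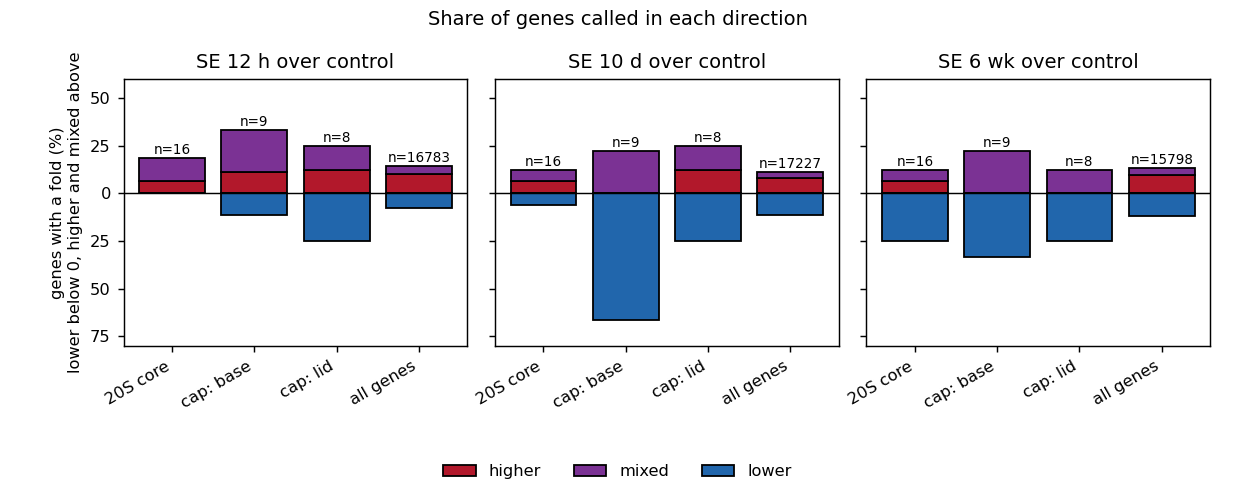
Percentage of genes called at SE 12 h, SE 10 d and SE 6 wk over control in the 20S core (16 genes), the base (9) and the lid (8) of the 19S cap, and all genes with a fold. Bars above 0 stack higher and mixed genes, and bars below 0 show lower genes. At 10 d the base reaches 66.7% lower, against 11.3% of all genes. Of the lower base genes, only Psmc1 and Psmd2 had mean folds of 2 or more in size.

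Promoters are shown for the 5 members that hold the letters TGACNNNGC, the core of the antioxidant response element to which Nfe2l1 and its relative Nfe2l2 bind, because these factors are known to act on proteasome genes as a set. RefSeq's promoter table (GRCm38.p6) had an entry for 30 of the 37 members, and the 250 bases before the start were searched on both strands. The 5 sequences run 5′ to 3′ on the gene's strand, with the motif in capitals. The window of Psmd12 stops at an upstream transcript start in GENCODE and is 206 bases long.
Psmb5, chr14:54617996-54618245, minus strand: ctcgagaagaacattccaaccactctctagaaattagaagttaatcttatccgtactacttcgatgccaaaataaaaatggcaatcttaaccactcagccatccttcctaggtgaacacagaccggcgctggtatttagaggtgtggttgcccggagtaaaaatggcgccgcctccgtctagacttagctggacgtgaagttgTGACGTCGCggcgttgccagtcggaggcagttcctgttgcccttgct
Psmb6, chr11:70525107-70525356, plus strand: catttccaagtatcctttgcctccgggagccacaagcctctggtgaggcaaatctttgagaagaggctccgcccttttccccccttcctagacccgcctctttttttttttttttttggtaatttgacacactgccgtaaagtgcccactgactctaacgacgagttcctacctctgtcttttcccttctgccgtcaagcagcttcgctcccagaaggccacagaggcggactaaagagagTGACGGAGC
Psmc6, chr14:45329574-45329823, plus strand: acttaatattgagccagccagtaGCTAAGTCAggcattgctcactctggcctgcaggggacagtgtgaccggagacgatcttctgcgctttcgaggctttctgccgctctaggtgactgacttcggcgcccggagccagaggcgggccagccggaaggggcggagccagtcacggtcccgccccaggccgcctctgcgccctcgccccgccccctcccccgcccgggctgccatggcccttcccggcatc
Psmd12, chr11:107479278-107479483, plus strand: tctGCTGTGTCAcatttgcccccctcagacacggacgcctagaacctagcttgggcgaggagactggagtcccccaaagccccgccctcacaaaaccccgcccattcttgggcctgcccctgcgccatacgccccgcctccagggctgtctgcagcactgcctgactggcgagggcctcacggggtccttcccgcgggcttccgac
Psmd9, chr5:123227940-123228189, plus strand: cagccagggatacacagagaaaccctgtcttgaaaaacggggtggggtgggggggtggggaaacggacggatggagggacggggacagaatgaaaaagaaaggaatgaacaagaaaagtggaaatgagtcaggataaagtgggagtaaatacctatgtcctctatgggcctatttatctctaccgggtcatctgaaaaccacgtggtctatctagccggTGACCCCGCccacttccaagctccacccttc
TGACNNNGC stood in 5 of 30 member promoters (16.7%), against 10.1% of 27025 promoters of all genes. TGACG, the short form of the cyclic AMP response element, which can overlap TGACNNNGC as it does in Psmb5 and Psmb6, stood in 11 of 30 (36.7%), against 17.9% of all. CCAAT, the box bound by NF-Y, stood in 13 of 30 (43.3%), against 34.5%. The full palindrome TGACGTCA stood in 0 of 30, against 1.62%. The 5 genes printed did not share a direction. By the authors' deposited table, Psmc6 and Psmd12 were lower at 10 d and 6 wk, Psmd9 was higher at 10 d, and the catalytic genes Psmb5 and Psmb6 passed at no time.

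Among the alpha ring genes, whose products form the gated outer rings of the core, 1 of 8 was higher and none lower at 10 d, and 1 was higher and 2 lower at 6 wk. Psma6 (NM_011968, chromosome 12, 56499811 to 56519446 on mm9) was the only member higher at both late times, with a mean fold of 12.7 at 10 d (q 8.66e-16) and 5.97 at 6 wk (q 0.00205) per the authors' deposited table. At 12 h Psma6 was mixed, at 0.502 (q 0.0371) per the authors' deposited table. Psma1 passed the mean q at every time but was called only at 6 wk. Its mean folds per the authors' deposited table were 0.399 (q 0.000519) at 12 h, 0.146 (q 0.00149) at 10 d and -4.98 (q 0.0305) at 6 wk. Psma4 was lower at 6 wk, with a mean fold of -27.4 (q 0.00237), after 3.65 (q 0.155) at 12 h and -7.24 (q 0.165) at 10 d per the authors' deposited table.

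The other 5 alpha ring genes passed at no time. Psma5 had the most positive mean folds of all members at 12 h and 6 wk, 91.7 (q 0.235) and 32.1 (q 0.304) per the authors' deposited table, so that the size of a fold and its q-value went apart. Psma5 stood at 7.88 (q 0.379) at 10 d per the authors' deposited table. Psma3 had 1.14 (q 0.785), 18.0 (q 0.427) and 7.71 (q 0.353) at 12 h, 10 d and 6 wk per the authors' deposited table. Psma2 had 3.50 (q 0.182), -15.3 (q 0.136) and -24.6 (q 0.190) at these times per the authors' deposited table. Psma7 stayed between -3.73 and 0.279, and Psma8, the testis form of an alpha subunit, between -1.08 and 0.485 per the authors' deposited table.

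Among the beta ring genes, 1 of 8 was higher at 12 h, 1 lower at 10 d and 2 lower at 6 wk. The catalytic genes were not among them. Psmb5, which carries the chymotrypsin-like site, had mean folds of -2.22 (q 0.140) at 12 h, -0.771 (q 0.474) at 10 d and -42.6 (q 0.151) at 6 wk per the authors' deposited table, the last being the most negative of any member. Psmb6, which carries the caspase-like site, stayed under 1 in size at each time, with 0.801 (q 0.464), -0.104 (q 0.368) and 0.535 (q 0.472) at 12 h, 10 d and 6 wk per the authors' deposited table. Psmb7, which carries the trypsin-like site, had 8.68 (q 0.119) at 12 h and 11.4 (q 0.249) at 10 d and was mixed at 6 wk, at -0.362 (q 0.0146) per the authors' deposited table.

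Of the other beta ring genes, Psmb1 was higher at 12 h and lower at 6 wk, with mean folds of 3.42 (q 0.0039) and -2.32 (q 0.00216), and stood at 6.46 (q 0.105) at 10 d per the authors' deposited table. Psmb2 was lower at 10 d, at -8.33 (q 0.000268), and at 6 wk, at -1.10 (q 0.00722), and had 2.22 (q 0.474) at 12 h per the authors' deposited table. The fold of Psmb2 at 6 wk lay just past the minimum of 1. Psmb3 had mean folds of 9.86 (q 0.200), -24.9 (q 0.476) and -25.1 (q 0.473) at 12 h, 10 d and 6 wk per the authors' deposited table, none of which passed. Psmb4 lay between -8.46 and 0.922 and Psmb11, a subunit of the thymus proteasome, between 1.92 and 11.8 per the authors' deposited table, without a call.

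**Figure D2:**
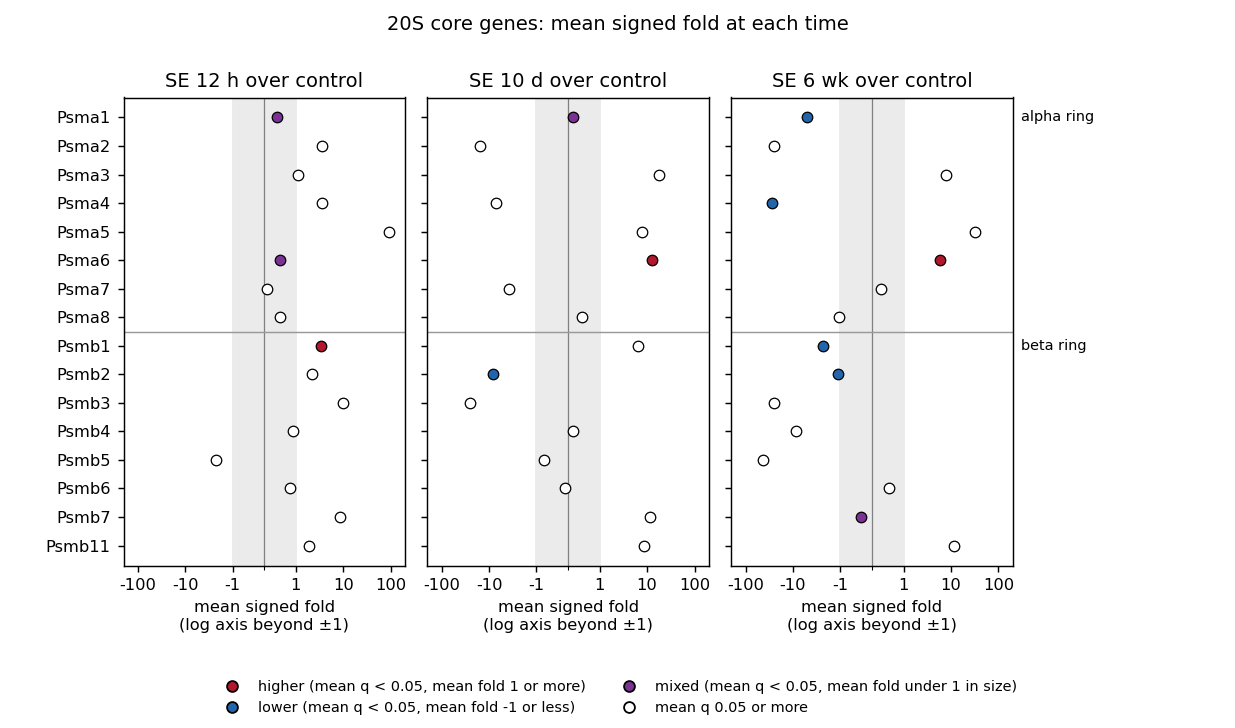
Mean signed fold of the 16 genes of the 20S core at SE 12 h, SE 10 d and SE 6 wk over control, on an axis that is logarithmic beyond 1 in size and linear within the grey band. Fill gives the call; Psma6 is higher at 10 d and 6 wk, and the 4 lower genes at 6 wk are Psma1, Psma4, Psmb1 and Psmb2.

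The base of the cap held most of the lower genes at 10 d. Of its 9 genes, 6 were lower, 2 mixed and none higher at 10 d, and 3 were lower, 2 mixed and none higher at 6 wk. Of the lower base genes at 10 d, only Psmc1 and Psmd2 had mean folds of 2 or more in size (-3.64 and -11.1). Psmc3, Psmc5, Psmc6 and Psmd1 lay between 1 and 2 in size. At 12 h the same 9 genes had 1 higher, 1 lower and 2 mixed. Their median mean fold was 0.284 at 12 h, -1.34 at 10 d and -1.74 at 6 wk.

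The ATPases Psmc1 to Psmc6 form the ring that unfolds the substrate. Psmc1 (NM_008947, chromosome 12, 101350540 to 101361574 on mm9) was lower at 10 d, at -3.64 (q 0.00816), mixed at 6 wk, at 0.0778 (q 0.00468), and narrowly not called at 12 h, at 2.36 (q 0.0532) per the authors' deposited table. Psmc5 was called in both directions, higher at 12 h, at 1.84 (q 0.00813), and lower at 10 d, at -1.88 (q 5.97e-06), with 0.0709 (q 0.155) at 6 wk per the authors' deposited table. Psmc3 was lower at 10 d, at -1.34 (q 0.0062), and mixed at 12 h and 6 wk, at 0.284 (q 0.0419) and -0.601 (q 0.00459) per the authors' deposited table. Psmc6, whose promoter is printed above, was lower at 10 d, at -1.67 (q 0.0486), and at 6 wk, at -2.33 (q 0.033), both near the q threshold, after -0.557 (q 0.399) at 12 h per the authors' deposited table. Psmc4 differed from these in time. It was lower only at 6 wk, at -11.5 (q 1.84e-10), after 0.792 (q 0.451) at 12 h and 0.568 (q 0.846) at 10 d per the authors' deposited table. Psmc2 was never called, with -0.105 (q 0.223) at 12 h, a mixed 0.538 (q 0.0473) at 10 d and -2.05 (q 0.126) at 6 wk per the authors' deposited table.

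The other base genes code for scaffolds and a ubiquitin receptor. Psmd2, a scaffold at which ubiquitin-like carriers dock, was lower at 12 h, at -1.33 (q 0.0041), and at 10 d, at -11.1 (q 2.90e-06), and had -1.74 (q 0.214) at 6 wk per the authors' deposited table. Psmd1, the other large scaffold, was lower at 10 d, at -1.11 (q 0.0357), close to both limits of the call, was mixed at 12 h, at -0.137 (q 0.0219), and had -0.859 (q 0.0515) at 6 wk per the authors' deposited table. Psmd4, a receptor for ubiquitin chains, was lower at 6 wk, at -5.60 (q 9.35e-12), and mixed at 10 d, at -0.172 (q 1.19e-05), after 0.527 (q 0.458) at 12 h per the authors' deposited table.

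In the lid, 2 of 8 genes were lower at each time, and 1 was higher at 12 h and at 10 d. Psmd11, whose product ties the lid to the core, was lower at 12 h, at -9.60 (q 2.01e-05), had -0.144 (q 0.346) at 10 d and was mixed at 6 wk, at -0.460 (q 0.0494) per the authors' deposited table. Psmd13 was the other lid gene lower at 12 h, at -4.79 (q 0.0183), with -2.37 (q 0.102) at 10 d and -1.83 (q 0.358) at 6 wk per the authors' deposited table. The lid subunits Psmd6 and Psmd12 made up both lower calls at 10 d and at 6 wk. Psmd6 (NM_025550, chromosome 14, 14944698 to 14953418 on mm9) had -9.47 (q 8.55e-09) at 10 d and -4.95 (q 0.0129) at 6 wk, after -1.67 (q 0.0777) at 12 h per the authors' deposited table. Psmd12 had -6.49 (q 3.54e-07) at 10 d and -1.52 (q 0.0312) at 6 wk, after -1.87 (q 0.215) at 12 h per the authors' deposited table.

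Psmd8 was the lid gene called higher. It was higher at 12 h, at 22.7 (q 0.000984), and at 10 d, at 7.92 (q 8.26e-08), and had 17.1 (q 0.257) at 6 wk per the authors' deposited table. Psmd14, the enzyme that cuts the ubiquitin chain from the substrate, passed at no time, with 0.270 (q 0.221), -0.164 (q 0.181) and -2.63 (q 0.336) at 12 h, 10 d and 6 wk per the authors' deposited table. Its structural partner Psmd7 had -0.725, -1.83 and -2.86 at these times per the authors' deposited table and did not pass either. Psmd3 was mixed at 12 h and 10 d, at 0.486 (q 0.0493) and 0.250 (q 0.00359) per the authors' deposited table.

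Of the 3 genes for chaperones that help to assemble the base, Psmd5 was called at 2 times. Psmd5 was higher at 12 h, at 6.09 (q 7.52e-06), and lower at 10 d, at -1.21 (q 0.0253), with 8.54 (q 0.0578) at 6 wk per the authors' deposited table. Psmd9 was higher at 10 d, at 4.03 (q 0.00327), with folds under 1 in size at 12 h and 6 wk, 0.757 and -0.548, per the authors' deposited table. Psmd10 was not called, at 5.23, 2.78 and 5.37 per the authors' deposited table, with mean q between 0.269 and 0.497. Psmc3ip shares the prefix but codes for a partner of meiotic recombinases and not for a subunit. Its mean fold of 85.2 at 10 d (q 0.447) was the most positive of the members at that time and did not pass, with 0.557 at 12 h and 4.70 at 6 wk per the authors' deposited table.

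**Figure D3:**
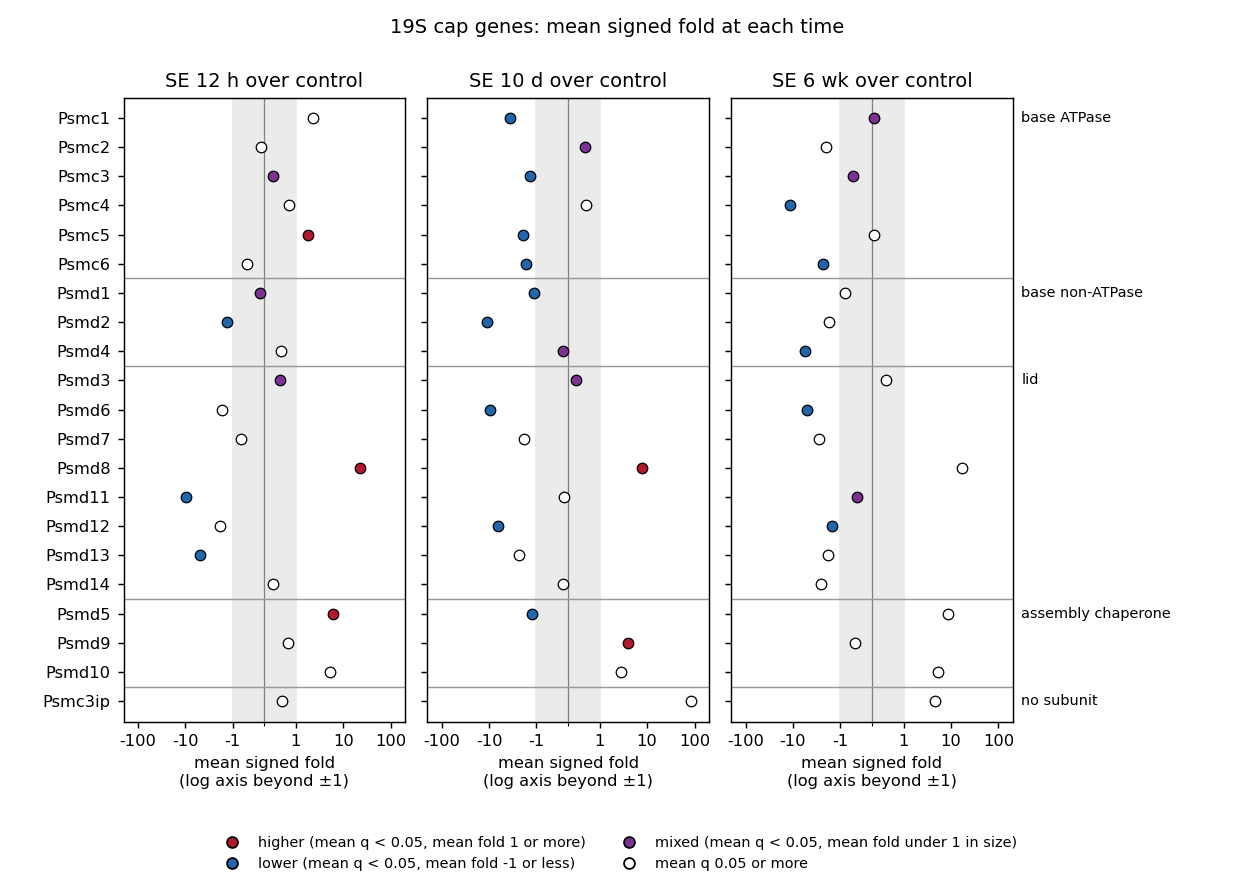
Mean signed fold of the 21 genes grouped by prefix as 19S cap at SE 12 h, SE 10 d and SE 6 wk over control. The plot is drawn like that of the core and includes the chaperone genes and Psmc3ip. At 10 d, 6 of the 9 base genes are filled as lower, while Psmd8 and Psmd9 are higher.

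Genes that act with the proteasome were read from lists of other parts of the pathway. Of the inducible subunits left out by the prefix rule, Psmb10 was higher at 12 h, at 45.5 (q 2.81e-06), and at 10 d, at 45.4 (q 0.00109), with 13.7 (q 0.250) at 6 wk per the authors' deposited table. Psmb10 replaces Psmb7 in the immunoproteasome. Psmb8, which replaces Psmb5, had 14.3 (q 0.340), 120 (q 0.361) and 0.862 (q 0.844) at 12 h, 10 d and 6 wk per the authors' deposited table. Psmb9, which replaces Psmb6, had -0.360 (q 0.789), -1.08 (q 0.799) and 39.3 (q 0.407) there, so 1 of the 3 inducible subunits was called per the authors' deposited table.

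Among 5 genes for activators and an inhibitor, none was called at 12 h, 2 were higher and 1 lower at 10 d, and 1 was higher and 2 lower at 6 wk, when Psme2 was listed at a fold of 0. Psme3, the nuclear activator subunit, was lower at 10 d, at -15.9 (q 0.000254), and at 6 wk, at -1.22 (q 0.0115) per the authors' deposited table. Psme4, an activator of another type, was higher at both times, at 2.47 (q 0.0355) and 2.80 (q 0.0301) per the authors' deposited table. Psme1, an interferon-induced activator subunit, was higher at 10 d, at 7.47 (q 0.0268), and the inhibitor Psmf1 was lower at 6 wk, at -32.0 (q 0.000338) per the authors' deposited table. Of 5 assembly genes of the core, only Pomp, which matures the beta ring, was called, lower at 6 wk at -3.08 (q 1.88e-06), and mixed at 10 d, at -0.588 (q 0.000671) per the authors' deposited table.

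Of 7 measured genes for proteins associated with the cap, 1 was higher at 12 h, 1 was higher and 2 lower at 10 d, and 1 was higher and 1 lower at 6 wk. Usp14, a deubiquitinase on the cap, was lower at 10 d, at -2.55 (q 0.00136), and at 6 wk, at -2.56 (q 1.09e-08) per the authors' deposited table. The ubiquitin ligase gene Ube3c was lower at 10 d, at -4.17 (q 0.0481) per the authors' deposited table. Shfm1, whose small product is a lid subunit without the prefix, was higher at 10 d, at 22.4 (q 1.15e-10), and the thioredoxin-like Txnl1 was higher at 12 h, at 2.42 (q 2.96e-09), and at 6 wk, at 3.04 (q 0.000184) per the authors' deposited table. Of 6 genes for ubiquitin and its activating enzymes, Ubb was the only one called, higher at 10 d, at 1.67 (q 0.0268), and lower at 6 wk, at -25.9 (q 0.0262) per the authors' deposited table.

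Of 10 genes for shuttle factors and the Vcp unfoldase system, which delivers ubiquitinated proteins to the cap, 1 was higher and 2 lower at 12 h, 1 higher and 4 lower at 10 d, and 2 higher and 2 lower at 6 wk. Vcp itself was lower at each time, at -3.39 (q 0.00135), -6.80 (q 6.89e-11) and -5.46 (q 1.63e-12) at 12 h, 10 d and 6 wk per the authors' deposited table. Ufd1l, a cofactor of Vcp, was lower at 12 h, at -55.5 (q 0.0393), and the shuttle Ubqln4 was lower at 6 wk, at -7.09 (q 0.000626) per the authors' deposited table. Another Vcp cofactor, Nsfl1c, was lower at 10 d, at -9.05 (q 3.16e-12) per the authors' deposited table. The shuttle Ubqln1 was lower at 10 d as well, at -2.005 (q 0.00353) per the authors' deposited table. Ddi2, the protease that activates Nfe2l1, was higher at each time, at 3.12 (q 0.00119), 3.98 (q 0.00727) and 5.14 (q 6.60e-07) per the authors' deposited table.

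Of 6 transcription factor genes tied to proteasome genes, none was higher and 1 lower at 12 h, none higher and 2 lower at 10 d, and 1 higher and 2 lower at 6 wk. Nfe2l1 was lower at 10 d, at -1.74 (q 6.41e-12), and at 6 wk, at -1.81 (q 4.95e-14), and mixed at 12 h, at -0.777 (q 1.03e-07) per the authors' deposited table. Mafk, a small Maf partner of that factor, was lower at each time, at -5.52 (q 5.18e-10), -17.2 (q 0.000424) and -25.3 (q 9.48e-06) per the authors' deposited table. Mafg, another small Maf, was higher at 6 wk, at 3.13 (q 0.0214) per the authors' deposited table. Nfe2l2 had -14.8 (q 0.229), -3.28 (q 0.162) and -3.20 (q 0.152) and passed at no time per the authors' deposited table.

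**Figure D4:**
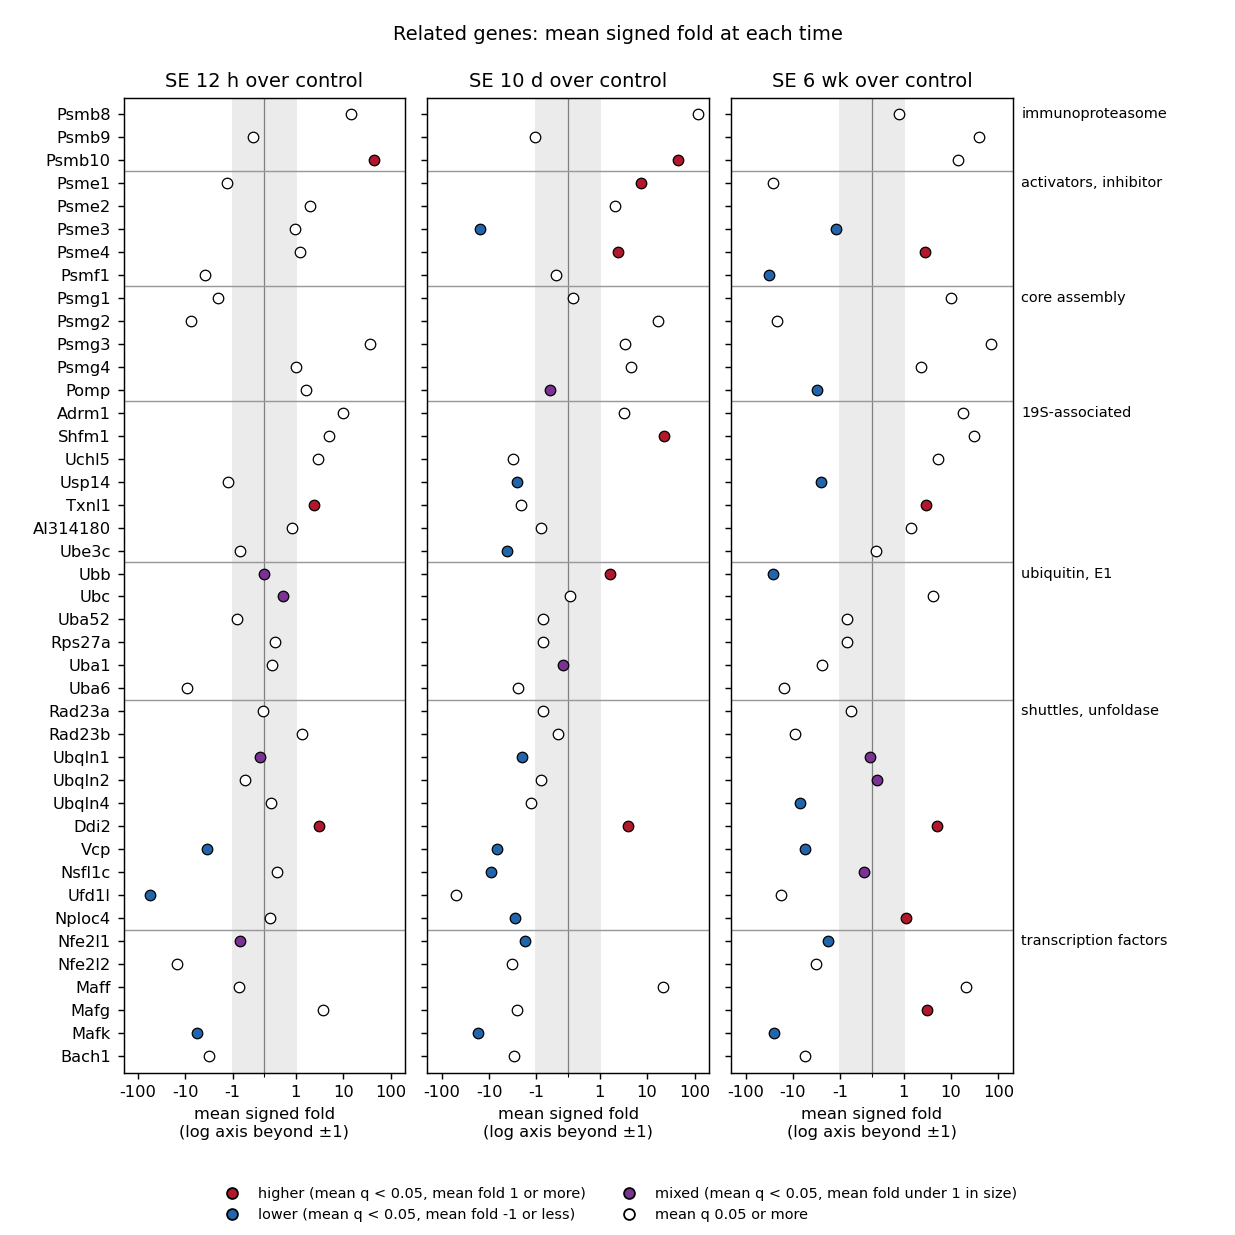
Mean signed fold of 42 related genes at SE 12 h, SE 10 d and SE 6 wk over control, by role, on the axis used for the members. Vcp and Mafk are lower and Ddi2 is higher at each time; Psme2 at 6 wk is listed at a fold of 0 and is not drawn.

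The deposited table also listed regions named for CREB, an activity-dependent transcription factor, with offsets of at most 2000 bases from a gene, in 3 lists whose experiments the sources used here do not describe. A region stood in 1 or more lists for 13 of 37 members (35.1%), against 34.8% of all 20258 genes. By list, 29.7%, 18.9% and 29.7% of members had a region, against 29.8%, 9.66% and 30.2% of all genes. Only in the second list was the members' share the larger. All 3 lists named 6 members (16.2%), against 6.6% of all genes. These 6 were Psmb3, Psmb5, Psmb6, Psmc3, Psmc6 and Psmd5, the Psmb genes being grouped with the core and the others with the cap. Psmd5 had the greatest height of the members in each list, 240, 24 and 259 on a scale that the sources do not explain. By their deposited start and stop, unlike their offsets, many regions lay more than 2000 bases from the gene's own coordinates. This held for 84.1% to 85.3% of all genes listed and 57.1% to 63.6% of the members listed. Positions were therefore set aside and only the listing was used.

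Proteasome transcripts had shorter medians than transcripts at large. The longest GENCODE coding transcript had a median of 1162.5 bases for core genes and 1785 for cap genes, against 2559 for 19529 genes with a length. In 5 classes of nearly equal size by length, set before genes without a fold were dropped, 12 members fell in the shortest, 16 in the next, 7 in the third and 2 in the fourth. Among genes with a fold at 10 d, 3.66% of 2103 and 7.51% of 3357 in the shortest 2 classes were lower, against 18.6% of 3879 in the longest class. At 6 wk, 9.88% of 1579 and 12.9% of 2946 were lower in the shortest 2 classes, against 10.0% of 3846 in the longest. The part of transcript length in the calls of core and cap genes was not tested.

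Markers of other cell types and of neurons were also called at these times. Of 7 neuronal markers found, 2 were higher and none lower at 12 h, none higher and 1 lower at 10 d, and 1 higher and 3 lower at 6 wk, with 2, 2 and 1 mixed. Of 7 astrocyte markers, 3, 3 and 4 were higher at 12 h, 10 d and 6 wk and none lower, and of 10 microglial markers none, 4 and 3 were higher and 1, 1 and none lower. Of 6 oligodendrocyte markers, 1 was higher and 2 lower at 12 h, 2 higher and none lower at 10 d, and 1 higher and 1 lower at 6 wk. Of 5 choroid plexus markers, 2, 1 and none were higher and none lower, and Clic6 was listed at a fold of 0 at 6 wk. The part of these shifts in the values of the proteasome genes was not tested, and summed marker levels per library were not analysed here.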

How the data were processed

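Polyadenylated RNA of 8 hippocampal libraries was aligned to mm9 with Bowtie, and reads with a unique position were tallied over exons of RefSeq genes, per the design text. For mRNA the authors deposited an average signed fold (a score, since it can be negative) and an average q-value per transcript and time, per the file headers. No source used here states how these were computed, from which pairs or pools of libraries, or with what scaling. Multiplied by 4, 100% of the members' folds were whole millionths within 0.02, which means of 4 values would give.

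Of 29208 rows, 96 named no gene; the first row stood for a symbol. Psmd7 (3 identical rows) and Psmd10 were the members on more than 1 row. Genes at a fold of 0 were left out of shares. No mRNA value belonged to a library, so the planned count test and left-out libraries were not run, and error and depth are unknown. The authors' CREB region height, a score, was used as listed or not, apart from Psmd5. Not used were 32 deposited columns of small RNA values per library and 4 columns of other times. Medians were also taken on a log2 scale of the deposited fold that keeps its sign and sets folds under 1 in size to 0. Members, lists and the call rule were chosen with earlier results of these data known. Named genes were called members, catalytic and ATPase subunits, the 2 most positive and negative folds of a time and, of other lists, up to 3 called genes a time by lowest q; further members were named to account for all. Cell type markers, which the rule also covers, are given by count instead. Values were computed with Python 3.11.15, pandas 2.3.3 and numpy 2.4.6.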

Additional observations from a re-analysis of the deposited data

How the results depend on the processing

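Counts of proteasome genes did not depend on which row stood for a gene, but only Psmd7 and Psmd10 had more than 1 row, so this check could hardly move them. Without a minimum fold, mixed genes count by sign. Then 8 members (21.6%) were higher at 12 h, 6 (16.2%) at 10 d and 2 (5.41%) at 6 wk, in place of 4, 3 and 1. Of all genes with a fold, 12.3%, 9.49% and 11.4% were higher under that setting. With a minimum fold of 2, 5 members in place of 10 were lower at 10 d, or 13.5% against 9.63% of all genes. With mean q under 0.01, 5 members in place of 9 were lower at 6 wk, or 13.5% against 8.89% of all genes. Of 21 cap genes, 2 (9.52%) were then lower, near the share of all genes. With mean q under 0.1, 2 members in place of 1 were higher at 6 wk, or 5.41% against 11.1% of all genes. Every other count of members stayed within 1.5 times of its value. The median log2 fold of core genes at 12 h was 0.56, or 0.19 without folds of 20 or more and 0.67 without Psma8 and Psmb11. At 6 wk it was -0.13, or 0 without folds of 20 or more and -0.68 without Psma8 and Psmb11. For cap genes it was -0.15 at 10 d, or -0.22 without folds of 20 or more and -0.42 without Psmc3ip, Psmd5, Psmd9 and Psmd10, and 0 at 6 wk, or -0.80 without those 4 genes. It was 0 for core genes at 10 d and for cap genes at 12 h under each setting. As deposited, these 2 median folds were 0.145 and 0.284, which this scale sets to 0, so small shifts between settings could not show. Centring on the median of all genes could not move a value, because that median, 0.557, 0.689 and -0.737 as deposited, is 0 by construction on this scale; it says nothing about stability. No paired analysis was possible because the mRNA values belong to comparisons and not to libraries; leaving out libraries, other scalings and count filters were not run for the same reason.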
